A study of Macaca mulatta with 102 samples.

Results

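Blood T cells of rhesus macaques that received KY1005 alone after a transplant of donor hematopoietic cells were compared with those of macaques that received sirolimus alone. KY1005 is an antibody that blocks OX40 ligand, and sirolimus is a small molecule that inhibits the kinase mTOR. Both were given to prevent graft-versus-host disease, in which donor T cells attack the recipient. The arrays were chosen by their group label, KY1005.F with 3 arrays and Siro.F with 4, which makes 7 of the 102 arrays of the series. CD3-positive T cells were sorted from blood by flow cytometry, and their RNA was measured on Affymetrix arrays. The KY1005.F arrays came from animals R.211 and R.206 on day 16 and R.212 on day 23 after transplant, all in labelled batch 6. The Siro.F arrays came from R.13 on day 12 and R.18 on day 24, in batch 2, and from R.17 on day 22 and R.16 on day 12, in batch 1. Each array of these 2 groups is a different animal. Doses, ages and the meaning of the ending F are not given in the sources used here. Values of a group are given below in the order R.211, R.206, R.212 for KY1005.F and R.13, R.18, R.17, R.16 for Siro.F. Untransplanted healthy animals (46 arrays of 45 animals) give the reference level. KY1005.D14 (R.210 on day 14 and R.212 on day 16), KY1005.Siro.D14 (both agents, 5 animals on day 14) and NoRx.F (donor cells without prophylaxis, 4 animals on days 6 to 12) are set beside them in places.

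OX40, encoded by TNFRSF4, is a receptor that T cells display once they have been activated. Its ligand, encoded by TNFSF4, sits mainly on antigen-presenting cells, and the bound receptor recruits TRAF adaptor proteins and turns on NF-kB, which prolongs survival and expansion of the activated T cells. Sirolimus binds the protein FKBP12, and the complex inhibits mTOR complex 1, which couples growth factor and nutrient signals to protein synthesis and entry into the cell cycle. The 2 agents thus act at different points, one on a costimulatory signal from outside the cell and the other on a kinase within it.

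The mean of core T cell genes lay within the healthy range in both groups. Of 18 listed core T cell genes 10 had a usable probe set, and the mean of these 10 lay between -0.25 and 0.15 of the healthy mean in KY1005.F and between -0.19 and -0.01 in Siro.F, on the log2 scale, inside the healthy range of -0.29 to 0.26. The genes of the CD3 chains were not among the 10, of which CD6 (1.01) and TRAT1 (0.65) were higher in KY1005.F at an unadjusted p under 0.05. Single genes could leave their own healthy range. CD8A, one of the 10, read 12.62, 12.79 and 12.52 in KY1005.F (log2 RMA signal), against a healthy range of 11.63 to 12.76. In Siro.F CD8A read 12.84, 12.85, 11.61 and 12.96, and these arrays and R.206 lay outside that range. RNA integrity, as the actin control signal at the 3' end over that at the 5' end, was 0.29 to 0.46 in KY1005.F and 0.41 to 2.00 in Siro.F as log2, within the healthy range of 0.25 to 3.95. Siro.F spread more than KY1005.F, with a median SD over genes of 0.24 (n = 4) against 0.15 (n = 3). R.211 stood apart within KY1005.F, as it was the array farthest from the group mean for 51.3% of genes. The groups share no batch, so regimen and batch cannot be told apart by these arrays alone. Healthy arrays of the same batches (7 in batch 6, 15 in batches 1 and 2) link them in the fit. Healthy arrays of different batches differed less than chance would give, so a batch adjustment may precede the deposited values.

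Few differences between the regimens passed the test. In the fit of all 16 groups with batch as a factor (limma, Benjamini-Hochberg adjustment over all probe sets), 3 of 31710 probe sets (0.00946%) had an adjusted p under 0.05, and all 3 were lower in KY1005.F. The annotation pairs none of these 3 with a single gene, and they are named here after their values were seen. MmuSTS.4506.1.S1_at read 7.96, 8.29 and 8.25 in KY1005.F and 9.72, 9.27, 9.23 and 8.70 in Siro.F, where these and all further array values are log2 RMA signals. Every Siro.F array lay above every KY1005.F array, and the healthy mean of 8.19 lay at the KY1005.F level. Its difference, KY1005.F minus Siro.F as for all differences below, was -1.17 ± 0.22 (SE, log2), or 2.25-fold lower (adjusted p = 0.025). The 5 arrays of both agents together read 7.65 to 8.49 for it, and the 4 arrays without prophylaxis 8.79 to 9.37. The other two probe sets were low. MmugDNA.19359.1.S1_at read 5.54, 5.48 and 5.46 against 6.42, 6.93, 6.58 and 6.31, a difference of -1.21 ± 0.23 (adjusted p = 0.0271). MmugDNA.25266.1.S1_at read 4.33, 4.29 and 4.32 against 4.87, 4.85, 5.52 and 5.23, a difference of -0.80 ± 0.16 (adjusted p = 0.0271). All its KY1005.F values lay under 5.21, the median signal of the table, where fold sizes are less reliable. R.210, treated with KY1005 alone, read 8.32 for MmuSTS.4506.1.S1_at, 6.12 for MmugDNA.19359.1.S1_at and 4.43 for MmugDNA.25266.1.S1_at, each between the values of both groups.

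No named gene passed. Among 10718 genes, each represented by its brightest single-gene probe set, 0 had an adjusted p under 0.05, and the smallest was 0.0795 for C6H16orf92. At an unadjusted p under 0.05 there were 4456 probe sets (14.1%). Among genes, 522 (4.87%) were higher and 871 (8.13%) lower in KY1005.F at that unadjusted level. Counts of list members at that level below are to be read against these shares. Without the batch term 55 probe sets (0.173%) and 20 genes (0.187%) passed, 9 of the genes higher and 11 lower. With the batch term and without the 6 arrays of the series with a log2 actin ratio above 2.5, of which 2 are healthy arrays of batch 6, 0 probe sets passed and 1624 (5.12%) had an unadjusted p under 0.05. The median SE of a gene was 0.22, and for 79.6% of genes the 95% interval of the difference lay within 1 log2 unit of 0, so that for these a difference of more than 2-fold lay outside the interval. For the other genes the arrays could not bound the difference that closely.

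**Figure D1:**
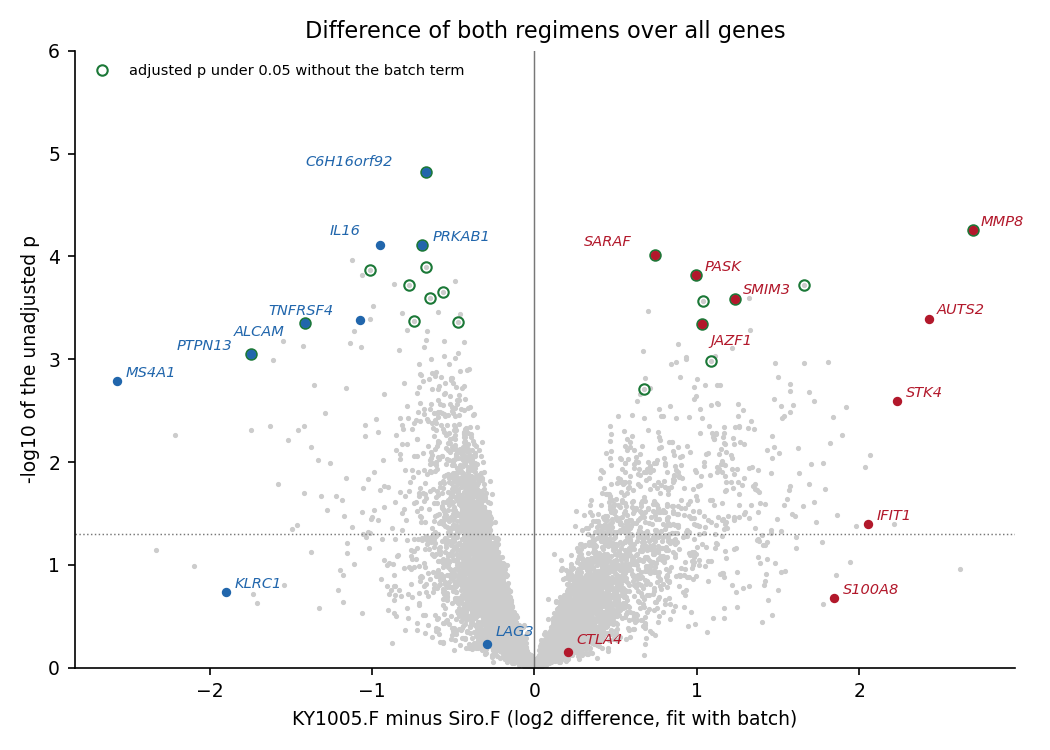
Difference between KY1005.F (n = 3) and Siro.F (n = 4) for each of 10718 genes, as log2 difference on the horizontal axis and -log10 of the unadjusted p on the vertical axis, with an unadjusted p of 0.05 as a dotted line. No gene passed the adjusted threshold in this fit of all groups with batch, green rings mark the 20 that passed without it, and coloured points are genes named in the text (red higher, blue lower in KY1005.F).

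Genes of the OX40 pathway had lower values in KY1005.F than in Siro.F, though none passed the test. TNFRSF4, the OX40 gene, read 7.89, 7.97 and 8.32 in KY1005.F and 8.44, 9.31, 9.63 and 8.56 in Siro.F. All 3 KY1005.F arrays lay within the healthy range of 6.92 to 8.33, and all 4 Siro.F arrays above it. The difference was -1.07 ± 0.29 (95% interval -1.66 to -0.49, 2.11-fold, adjusted p = 0.172). Against healthy animals TNFRSF4 rose by 1.22 ± 0.18 in Siro.F (adjusted p = 1.83e-06), while in KY1005.F the difference from healthy was 0.15 ± 0.23 (adjusted p = 0.727). The KY1005-only animal outside both groups, R.210, read 8.18, the arrays of both agents 7.52 to 8.90 and those without prophylaxis 8.28 to 8.81.

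TNFSF4, the OX40 ligand gene, read 5.77, 6.35 and 5.72 in KY1005.F and 6.58, 7.38, 5.47 and 6.76 in Siro.F. The groups overlap through the low array of R.17. The difference was -0.79 ± 0.34 (95% interval -1.47 to -0.12, adjusted p = 0.297), and against healthy animals TNFSF4 rose in Siro.F by 1.21 ± 0.21 (adjusted p = 4.07e-05) and differed by 0.42 ± 0.26 in KY1005.F (adjusted p = 0.349). Of the adaptor genes, TRAF3, an inhibitor of the noncanonical NF-kB route, read 7.11, 7.89 and 7.70 against 8.13, 8.55, 8.22 and 7.64, a difference of -0.65 ± 0.22 (adjusted p = 0.224). TRAF5, which binds OX40 directly, differed by -0.42 ± 0.17 and TRAF1 by -0.48 ± 0.23, both with overlapping groups. TRAF6, an adaptor shared with the interleukin 1 and Toll-like receptors, differed by 0.24 ± 0.21. Of the 6 measured genes of this 7-gene list, 5 were lower and 0 higher at an unadjusted p under 0.05, where over all genes 8.13% were lower and 4.87% higher. The median difference of the list was -0.57 against -0.07 over all genes. The mean of the 6 genes over the healthy mean was -0.03, 0.25 and 0.03 in KY1005.F and 0.40, 0.81, 0.44 and 0.33 in Siro.F, so the arrays of the groups did not overlap. In bulk RNA fewer cells of a type and less RNA per cell cannot be told apart.

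**Figure D2:**
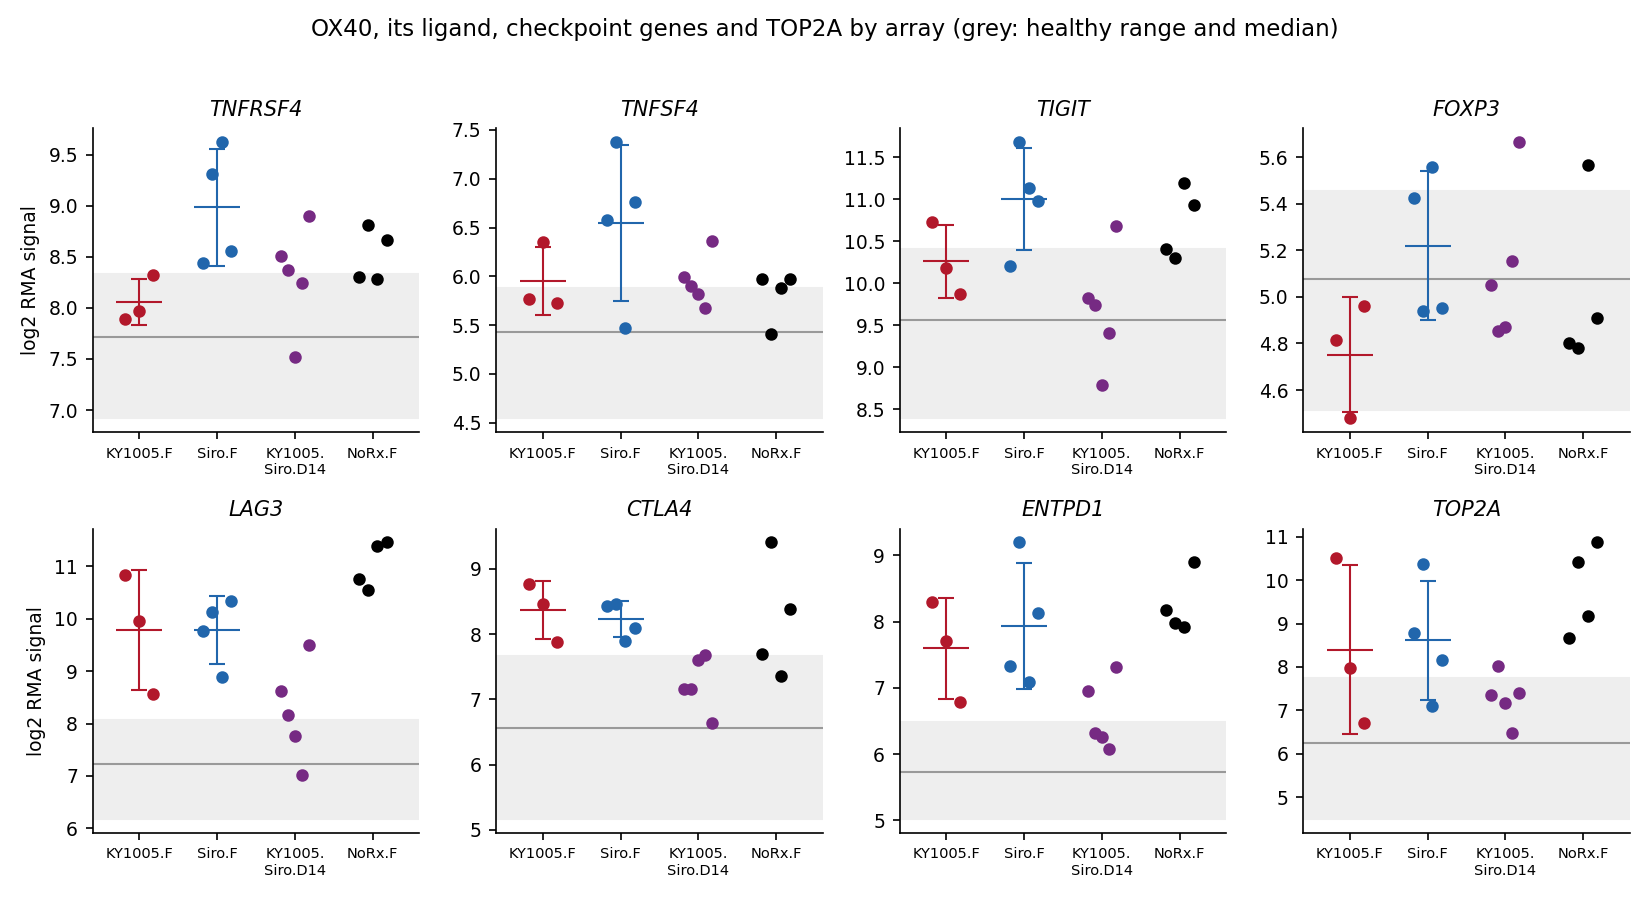
Log2 RMA signal of 8 genes in each array of KY1005.F, Siro.F, KY1005.Siro.D14 and NoRx.F, with the mean and SD of KY1005.F (n = 3) and Siro.F (n = 4), and the healthy range and median in grey. For TNFRSF4 the KY1005.F arrays lie in the healthy range and the Siro.F arrays above it, while for LAG3, CTLA4 and ENTPD1 all 7 arrays lie above the healthy range.

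NF-kB genes did not share a direction. The subunit genes REL and NFKB2 and the feedback inhibitor gene TNFAIP3, whose product A20 removes ubiquitin from signalling complexes, had higher values in KY1005.F. TNFAIP3 read 12.34, 11.89 and 11.06 against 10.50, 11.79, 10.12 and 10.02, a difference of 1.33 ± 0.45 (adjusted p = 0.224). NFKB2 read 8.29, 7.64 and 6.84 against 6.13, 7.41, 5.78 and 6.25, a difference of 1.47 ± 0.55 (adjusted p = 0.252). REL read 9.28, 8.57 and 8.01 against 7.61, 8.23, 6.31 and 7.82, a difference of 1.56 ± 0.67 (adjusted p = 0.304). For all 3 genes R.211 was the highest KY1005.F array, R.18 the highest Siro.F array, and the groups overlapped. NFKBIA, which encodes the inhibitor IkB alpha, read 5.35, 5.24 and 5.26 against 5.36, 5.74, 5.44 and 5.63, with a difference of -0.36 ± 0.16 (adjusted p = 0.298). These 4 genes are named because of their values. Of 14 measured genes of this list 3 were higher and 1 lower at an unadjusted p under 0.05, with a median of -0.03.

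LAG3, CTLA4, ENTPD1 and HAVCR2 rose against healthy animals in both groups, and the data bound their difference between the regimens only loosely. Of the 15 measured costimulation and checkpoint genes 4 rose and 1 fell against healthy animals in KY1005.F, and 5 rose and 0 fell in Siro.F. Over all genes 1.79% rose and 2.03% fell in KY1005.F, and 6.04% rose and 4.92% fell in Siro.F. LAG3, an inhibitory receptor, read 10.85, 9.95 and 8.56 in KY1005.F and 9.78, 10.13, 8.89 and 10.35 in Siro.F, all above the healthy maximum of 8.07. It rose against healthy animals by 2.35 ± 0.41 in KY1005.F (adjusted p = 0.000304) and by 2.64 ± 0.34 in Siro.F (adjusted p = 3.76e-08). The difference between the regimens was -0.29 ± 0.53, with a 95% interval of -1.35 to 0.77. CTLA4, which competes with CD28 for its ligands, read 8.77, 8.46 and 7.88 against 8.44, 8.47, 7.90 and 8.10, with a difference of 0.20 ± 0.54 (95% interval -0.86 to 1.27). ENTPD1, the ectonucleotidase CD39, read 8.29, 7.71 and 6.79 against 7.33, 9.20, 7.10 and 8.13, with a difference of -0.62 ± 0.43 (95% interval -1.47 to 0.23). The signs of the LAG3 and CTLA4 differences turned under 1 and 2 of 24 settings respectively, and a p that misses the threshold does not show that the regimens act alike on them. CTLA4 rose against healthy animals by 1.77 ± 0.42 in KY1005.F (adjusted p = 0.00993) and by 1.57 ± 0.34 in Siro.F (adjusted p = 0.000882), and ENTPD1 by 1.61 ± 0.33 (adjusted p = 0.0033) and 2.23 ± 0.27 (adjusted p = 1.11e-08). HAVCR2, the receptor TIM-3, rose against healthy animals by 0.89 in KY1005.F (adjusted p = 0.0149) and by 0.67 in Siro.F (adjusted p = 0.00937).

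TIGIT and CD226 compete for the same ligands, TIGIT as an inhibitory and CD226 as an activating receptor, and their differences had opposite signs. TIGIT read 10.73, 10.18 and 9.87 in KY1005.F and 10.21, 11.68, 11.13 and 10.97 in Siro.F, a difference of -0.93 ± 0.38 (95% interval -1.68 to -0.17, adjusted p = 0.288). CD226 read 6.87, 7.20 and 6.76 against 4.93, 5.61, 6.51 and 6.68, so its groups did not overlap, with a difference of 1.12 ± 0.44 (95% interval 0.25 to 1.99, adjusted p = 0.273). Against healthy animals TIGIT rose in Siro.F by 1.48 ± 0.24 (adjusted p = 9.27e-06), and its difference in KY1005.F was 0.55 ± 0.29 (adjusted p = 0.265). CD40LG, the ligand by which T cells help B cells, read 7.92, 8.28 and 8.44 against 8.29, 9.19, 9.13 and 8.67, a difference of -0.83 ± 0.35 (adjusted p = 0.294). It fell against healthy animals by 1.11 ± 0.27 in KY1005.F (adjusted p = 0.0135) and differed by -0.28 ± 0.22 in Siro.F. In the list of 20 costimulation and checkpoint genes, of which 15 were measured, CD226 was higher and TIGIT and CD40LG were lower at an unadjusted p under 0.05, and the median was -0.16.

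FOXP3, the transcription factor that defines regulatory T cells, was measured near the lower end of the array. It read 4.81, 4.48 and 4.96 in KY1005.F and 5.43, 4.94, 5.56 and 4.95 in Siro.F, with a healthy median of 5.08. The 3 KY1005.F values and 2 of the Siro.F values lay under 5.21. The difference was -0.57 ± 0.21 (95% interval -0.99 to -0.15, adjusted p = 0.251). IL2RA, the alpha chain of the interleukin 2 receptor, read 6.71, 7.04 and 6.94 against 7.37, 6.94, 7.47 and 7.02, a difference of -0.19 ± 0.32. It rose against healthy animals by 0.97 ± 0.20 in Siro.F (adjusted p = 0.000525) and differed by 0.79 ± 0.25 in KY1005.F (adjusted p = 0.0557). BATF, a transcription factor of activated T cells, rose by 1.02 in KY1005.F (adjusted p = 0.0135) and by 1.21 in Siro.F (adjusted p = 1.78e-05). Of 14 measured genes of regulatory T cells 3 rose against healthy animals in KY1005.F and 5 in Siro.F. Over all genes, 192 (1.79%) rose and 218 (2.03%) fell in KY1005.F, and 647 (6.04%) rose and 527 (4.92%) fell in Siro.F, with the same healthy arrays in both comparisons. Those counts depend on the arrays fitted. The probe sets that passed numbered 1040 (3.28%) in KY1005.F, 41 without R.211, 202 without R.206 and 1008 without R.212. In Siro.F they numbered 2824 (8.91%), and 1943, 1016, 2647 and 2469 without R.13, R.18, R.17 and R.16. Fewer arrays also make a call harder to reach, so a lower count does not show that the calls come from the animal left out.

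Genes of cell division were above healthy in most animals of both groups, with wide spread within each group. TOP2A, a DNA topoisomerase of dividing cells, read 10.52, 7.98 and 6.70 in KY1005.F and 8.79, 10.38, 7.11 and 8.17 in Siro.F. R.211 and R.18 were the high arrays, and R.212 and R.17 lay within the healthy range, which reached 7.75. The difference was -0.20 ± 0.76, with a 95% interval of -1.70 to 1.30 that spans more than 2-fold either way. MKI67, which encodes the proliferation marker Ki-67, read 9.06, 7.14 and 7.27 against 8.17, 8.84, 7.16 and 6.75, with a difference of -0.14 ± 0.56. CCNB2, a mitotic cyclin, read 9.39, 6.85 and 6.75 against 8.27, 9.22, 6.83 and 7.03, with a difference of -0.50 ± 0.71. Across 24 settings the sign of the difference turned in 4 for TOP2A, 7 for MKI67 and 1 for CCNB2. The mean of the 13 measured mitosis genes over the healthy mean was 2.76, 0.85 and 0.40 in KY1005.F and 1.42, 2.35, 0.57 and 0.77 in Siro.F. None of the 13 had an unadjusted p under 0.05 between the regimens, and their median difference was -0.09.

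Genes of DNA replication and the entry into S phase had mostly negative differences, 15 of 18, with a median of -0.31. CCNE1, the cyclin that drives the step from G1 to S phase, was the only one of them with an unadjusted p under 0.05. It read 6.98, 6.98 and 6.61 in KY1005.F and 8.06, 8.39, 7.13 and 6.81 in Siro.F, a difference of -0.79 ± 0.28 (adjusted p = 0.24). Against healthy animals CCNE1 rose by 1.26 ± 0.18 in Siro.F (adjusted p = 5.55e-07) and differed by 0.47 ± 0.22 in KY1005.F (adjusted p = 0.199). R.210 read 7.54 for CCNE1, within the Siro.F values. Of the 18 genes 14 rose against healthy animals in Siro.F, among them MCM2, a subunit of the replicative helicase, by 1.09 and PCNA, the sliding clamp of DNA polymerases, by 0.91. In KY1005.F 2 of the 18 rose, MCM4 and UHRF1. The median of the 18 against healthy animals was 0.58 in KY1005.F and 1.00 in Siro.F. With 3 arrays in KY1005.F and 4 in Siro.F, these counts also depend on the precision of each group. Over all genes 6.04% rose in Siro.F and 1.79% in KY1005.F. The mean of the list over healthy was 1.36, 0.68 and 0.37 in KY1005.F and 1.29, 1.78, 0.27 and 0.57 in Siro.F, so the groups overlapped.

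The pathway that sirolimus inhibits showed small differences. MTOR, the gene of the kinase itself, read 8.09, 8.18 and 8.21 in KY1005.F and 8.68, 8.61, 8.63 and 8.54 in Siro.F, without overlap. The difference was -0.43 ± 0.15 (95% interval -0.74 to -0.13, adjusted p = 0.24), and MTOR fell against healthy animals by 0.39 ± 0.12 in KY1005.F (adjusted p = 0.0474) and differed by 0.04 ± 0.10 in Siro.F. R.210 read 8.56 for MTOR, within the Siro.F values. RPS6, the ribosomal protein phosphorylated downstream of mTOR complex 1, read 14.22, 14.30 and 14.35 against 14.23, 14.15, 14.14 and 14.17, with a difference of 0.12 ± 0.07. FKBP1A, the gene of the protein that sirolimus binds, had no usable probe set. Of 14 measured genes of the PI3K, AKT and mTOR pathway 1 was lower at an unadjusted p under 0.05, and the median was -0.14. The medians were 0.00 for 14 targets of mTOR complex 1 and ATF4, 0.08 for 20 cytosolic ribosomal proteins and 0.03 for 17 glycolytic genes. LDHA, the lactate dehydrogenase subunit, read 12.85, 12.85 and 12.67 against 12.77, 12.75, 12.62 and 12.84, all above the healthy maximum of 12.38. It rose against healthy animals by 0.69 ± 0.14 in KY1005.F (adjusted p = 0.00389) and 0.68 ± 0.12 in Siro.F (adjusted p = 2.59e-05), and the 95% interval of the difference between regimens was -0.37 to 0.37. These values are RNA levels and say nothing of the kinase activity of mTOR.

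A set of genes lay closer to the healthy level in KY1005.F than in Siro.F. They are named after their values were seen, from the smallest p of the comparison, and none passed in the fit of all groups with batch. In the same fit with array weights, where R.206 weighed far more than any other array, SMIM3, PASK and SARAF passed. SMIM3, which encodes a small membrane protein, read 8.58, 9.0 and 8.60 in KY1005.F and 7.38, 6.91, 7.63 and 7.93 in Siro.F, with a lowest healthy array of 8.75. Its difference was 1.23 ± 0.32 (adjusted p = 0.16), and it fell against healthy animals by 1.97 ± 0.20 in Siro.F (adjusted p = 9.5e-11). PASK, a kinase with a PAS sensor domain, read 7.90, 8.05 and 8.40 against 7.29, 6.93, 7.06 and 7.23. All Siro.F values of PASK lay under the lowest healthy array of 7.83, and the difference was 0.99 ± 0.25 (1.99-fold, adjusted p = 0.155). SARAF, which limits calcium entry through store-operated channels, read 12.33, 12.18 and 12.14 against 11.42, 11.55, 11.68 and 11.47, a difference of 0.74 ± 0.18 (adjusted p = 0.153). JAZF1, a zinc finger protein gene, read 9.14, 9.34 and 9.65 against 8.19, 8.30, 8.53 and 8.20, a difference of 1.03 ± 0.28 (adjusted p = 0.172). For all 4 genes the groups did not overlap, as for 709 genes (6.62%) with every KY1005.F array above every Siro.F array and 964 (8.99%) with every one below.

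AUTS2, a regulator of transcription, and NR3C1, the glucocorticoid receptor gene, had the same order. AUTS2 read 9.59, 9.39 and 9.71 in KY1005.F and 8.06, 7.01, 7.90 and 6.86 in Siro.F, a difference of 2.43 ± 0.66 (5.38-fold, adjusted p = 0.172). NR3C1 read 8.53, 8.31 and 8.32 against 6.51, 7.71, 7.82 and 7.06, a difference of 1.09 ± 0.32 (adjusted p = 0.202). Against healthy animals AUTS2 fell by 2.60 ± 0.42 (adjusted p = 6.8e-06) and NR3C1 by 1.24 ± 0.20 (adjusted p = 9.27e-06) in Siro.F, while in KY1005.F they differed by -0.17 ± 0.51 and -0.15 ± 0.25. Without the batch term SMIM3, PASK, SARAF, JAZF1 and NR3C1 passed (adjusted p from 0.0174 for PASK and SMIM3 to 0.0444 for NR3C1) and AUTS2 did not (adjusted p = 0.0711). R.210 read 8.88 for SMIM3, 7.89 for PASK, 12.00 for SARAF, 9.50 for JAZF1 and 9.56 for AUTS2. For NR3C1 it read 7.84, close to the highest Siro.F array. In the arrays without prophylaxis PASK read 6.03 to 7.24 and JAZF1 6.59 to 8.62.

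In the opposite direction, ALCAM, an adhesion molecule that binds CD6, read 8.78, 8.89 and 8.87 in KY1005.F and 10.47, 10.51, 10.41 and 9.36 in Siro.F. The Siro.F values lay above the healthy maximum of 9.10, and R.16 was the lowest of them. The difference was -1.42 ± 0.39 (2.67-fold, adjusted p = 0.172), and ALCAM rose against healthy animals by 1.76 ± 0.25 in Siro.F (adjusted p = 3.05e-07). PRKAB1, a regulatory subunit of the energy sensor AMPK, read 8.77, 8.77 and 8.65 against 9.35, 9.31, 9.33 and 9.42, a difference of -0.69 ± 0.17 (adjusted p = 0.153). IL16, whose product attracts CD4-positive cells, read 9.15, 9.39 and 9.19 against 9.76, 10.54, 9.74 and 10.07, a difference of -0.95 ± 0.23 (adjusted p = 0.153). For IL16 it was KY1005.F that departed from healthy, with a fall of 0.76 ± 0.18 (adjusted p = 0.0096). R.210 read 8.95 for ALCAM and 9.01 for PRKAB1, between the groups, and 9.78 for IL16, within the Siro.F values.

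**Figure D3:**
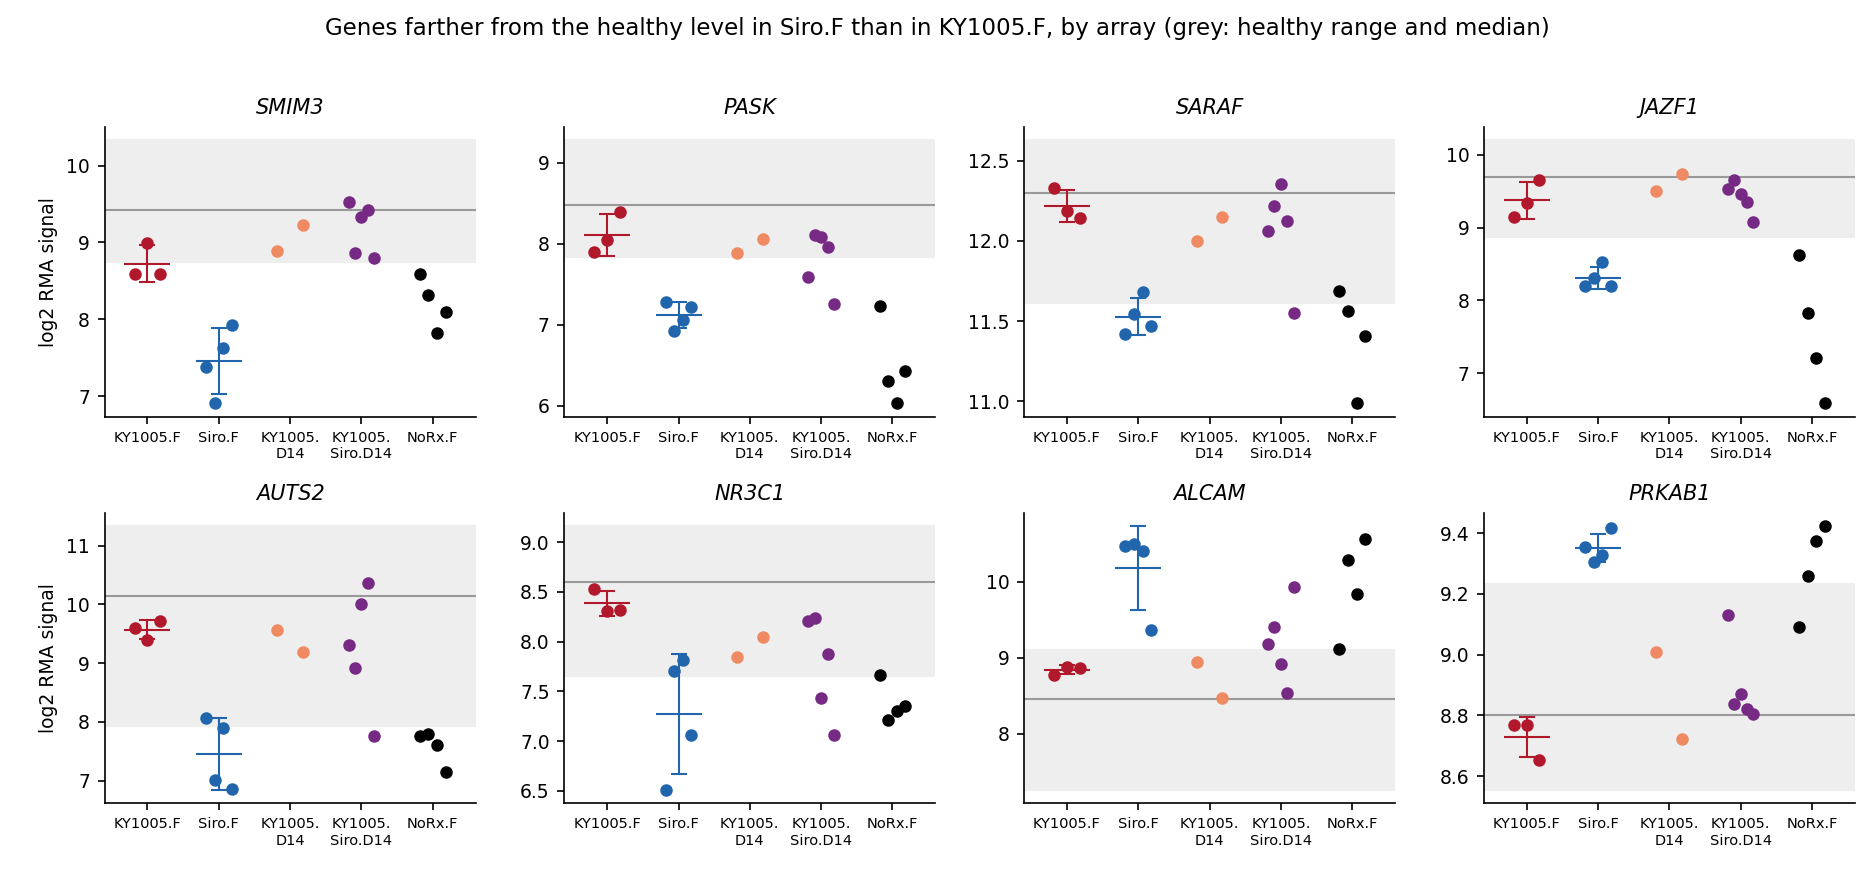
Log2 RMA signal of 8 genes in each array of 5 groups, with the mean and SD of KY1005.F (n = 3) and Siro.F (n = 4), and the healthy range and median in grey. The KY1005.F and Siro.F arrays do not overlap for any of the 8, and none of the 8 passed the adjusted threshold in the fit of all groups with batch.

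Animals with a healthy array of their own give such genes within the animal, as a description, since the genes were chosen on these arrays. R.206 is the only such animal in KY1005.F, and R.13, R.18 and R.16 are those in Siro.F, with the healthy array in another batch for R.206 and R.16. After transplant minus own healthy array, SMIM3 was -0.62 in R.206 and -2.25, -2.72 and -1.41 in R.13, R.18 and R.16. PASK was -0.24 against -1.12, -1.54 and -1.06, and SARAF -0.12 against -0.93, -0.99 and -0.71. TNFRSF4 was 0.11 against 0.69, 1.49 and 0.23. AUTS2 was -1.0 in R.206 against -0.52, -4.32 and -2.51, so R.13 moved less than R.206. For SMIM3, PASK, SARAF and TNFRSF4 R.206 moved the least of the 4 animals.

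Transcription factors of naive and resting T cells had higher values in KY1005.F. FOXP1, which keeps naive T cells quiescent, read 11.95, 12.12 and 12.23 in KY1005.F and 11.71, 11.27, 11.52 and 11.54 in Siro.F, a difference of 0.78 ± 0.26 (adjusted p = 0.223). KLF3 read 10.10, 10.09 and 10.66 against 9.92, 8.83, 9.74 and 8.94, a difference of 0.80 ± 0.33 (adjusted p = 0.288). Both fell against healthy animals in Siro.F, FOXP1 by 0.78 ± 0.16 (adjusted p = 0.000642) and KLF3 by 1.51 ± 0.21 (adjusted p = 3.05e-07), as did KLF2 and KLF7. In KY1005.F FOXP1 differed from healthy by 0.00 ± 0.20 and KLF3 by -0.71 ± 0.26 (adjusted p = 0.0969). KLF7 read 8.60, 8.79 and 9.43 against 8.50, 7.98, 9.61 and 7.59, with a difference of 0.82 ± 0.42. CCR7, the receptor that guides naive T cells to lymph nodes, read 8.97, 10.28 and 10.56 against 10.33, 9.36, 9.65 and 9.08, with a difference of 0.50 ± 0.55. TCF7 had a difference of -0.28 ± 0.28, the only negative one of the 11 measured genes. The median of the list was 0.50, with 2 genes higher and 0 lower at an unadjusted p under 0.05, and the list means of the groups overlapped (-0.36, -0.04 and 0.22 against -0.02, -0.58, -0.26 and -0.76).

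Cytotoxic effector genes ranged widely in level, and none passed between the regimens. GZMB, which encodes granzyme B, read 13.99, 13.56 and 13.05 in KY1005.F and 13.23, 13.57, 11.91 and 13.93 in Siro.F, with a difference of 0.26 ± 0.55 (95% interval -0.83 to 1.35). IFNG read 8.41, 6.84 and 6.78 against 4.89, 9.61, 5.24 and 7.59, with a difference of -0.05 ± 0.83, and the Siro.F arrays spanned more than 4 log2 units. TBX21, the transcription factor T-bet, had a difference of 0.93 ± 0.68. ZEB2, a factor of terminal effector cells, read 10.04, 8.77 and 8.53 against 6.11, 7.34, 6.08 and 8.50, a difference of 2.06 ± 0.77 (adjusted p = 0.251). CX3CR1, a chemokine receptor of the same cells, read 6.95, 7.44 and 6.21 against 5.18, 5.01, 5.50 and 6.32, a difference of 1.26 ± 0.58 (adjusted p = 0.329). The CX3CR1 values of R.13 and R.18 and the IFNG value of R.13 lay under 5.21, where fold sizes are less reliable. ZEB2 fell against healthy animals in Siro.F by 1.68 ± 0.49 (adjusted p = 0.0162). Of 19 measured genes of the list 2 were higher at an unadjusted p under 0.05, and the median was 0.26. CD4 and CD8A differed by -0.19 ± 0.30 and -0.06 ± 0.24.

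Interferon-induced genes had higher values in KY1005.F, carried by R.211 and R.206. IFIT1, which binds viral RNA, read 9.76, 8.83 and 6.21 in KY1005.F and 6.22, 5.83, 7.17 and 5.48 in Siro.F, a difference of 2.06 ± 0.98 (adjusted p = 0.336). MX1, an antiviral GTPase, read 10.40, 9.99 and 8.47 against 7.10, 8.41, 8.95 and 7.37, a difference of 1.72 ± 0.75 (adjusted p = 0.306). For both genes R.212, sampled on day 23, lay among the Siro.F arrays. On day 16 R.212 read 7.60 for IFIT1 and 9.41 for MX1, and R.210 read 7.60 and 9.42, above all Siro.F arrays. The arrays of both agents read 5.91 to 8.93 for IFIT1 and 8.07 to 10.55 for MX1. Those without prophylaxis read 5.87 to 8.53 and 8.47 to 10.79. OAS2, which makes the activator of RNase L, read 8.45, 8.87 and 7.93 against 7.51, 7.86, 7.33 and 6.94, without overlap, a difference of 0.99 ± 0.48 (adjusted p = 0.337). Against healthy animals MX1 rose by 1.93 ± 0.58 (adjusted p = 0.0464), OAS2 by 1.43 ± 0.37 (adjusted p = 0.0186) and IFI27 by 2.55 ± 0.66 (adjusted p = 0.018) in KY1005.F. ISG15 rose in both, by 1.58 in KY1005.F and 1.14 in Siro.F. Of 21 measured genes 17 had a positive difference, 4 were higher and 0 lower at an unadjusted p under 0.05, and the median was 0.49. The list mean over healthy was 1.39, 1.14 and 0.32 in KY1005.F and 0.36, 0.47, 0.52 and -0.13 in Siro.F.

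Genes of cytokine signalling through STAT proteins included several with higher values in KY1005.F. STAT3, activated by interleukin 6 and related cytokines, read 7.95, 8.58 and 8.41 in KY1005.F and 7.40, 7.04, 7.54 and 6.02 in Siro.F, a difference of 1.58 ± 0.65 (adjusted p = 0.287). STAT5A, activated by interleukin 2 and 7, read 8.05, 7.54 and 7.09 against 7.05, 6.86, 7.07 and 6.67, a difference of 0.82 ± 0.35 (adjusted p = 0.294). SOCS3, a feedback inhibitor of STAT3, read 5.52, 5.69 and 5.81 against 5.32, 4.82, 4.33 and 4.74, a difference of 0.92 ± 0.42 (adjusted p = 0.328). Its Siro.F values lay under 5.21 in all animals but R.13. The groups did not overlap for any of these 3. STAT3 rose by 1.70 ± 0.50 (adjusted p = 0.0418) and STAT5A by 0.95 ± 0.27 (adjusted p = 0.0352) against healthy animals in KY1005.F, and they differed by 0.12 ± 0.41 and 0.12 ± 0.22 in Siro.F. SOCS2, a target of STAT5, read 7.75, 8.86 and 9.88 against 8.51, 7.11, 9.60 and 6.63, with a difference of 1.39 ± 0.82, and rose in KY1005.F by 2.72 ± 0.64 (adjusted p = 0.00992). PIM1, another STAT5 target, rose in both, by 1.47 in KY1005.F and 0.81 in Siro.F. The mean of the list of SOCS family genes and STAT5 targets over healthy was 0.79, 0.76 and 0.74 in KY1005.F and 0.59, 0.60, 0.62 and 0.29 in Siro.F, and the median difference of its 13 genes was 0.16.

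The 12 largest differences in each direction, of which none passed, mixed T cell genes with markers of other blood cells. Of the 12 higher, 10 had an unadjusted p under 0.05 and 6 had groups that did not overlap, and of the 12 lower these numbers were 8 and 6. The genes were chosen by size on these same arrays, so these counts follow in part from the choice. Over all genes 4.87% were higher and 8.13% lower at that unadjusted p, and 6.62% and 8.99% did not overlap. The animal R.210, which entered neither group mean, lay nearer the KY1005.F mean than the Siro.F mean for 10 of the 12 higher and 9 of the 12 lower genes. The mean of the 5 arrays of both agents lay nearer KY1005.F for 6 and 7. These counts are a description, as those arrays share batch 6 with KY1005.F and the share over all genes was not computed. The healthy mean also lay nearer KY1005.F for genes such as AUTS2 (9.98) and ZEB2 (8.81), and nearer Siro.F for MMP8 (3.42) and STK4 (8.43). STK4, a kinase of the Hippo pathway that supports survival of naive T cells, read 9.25, 9.57 and 9.97 in KY1005.F and 7.13, 7.76, 8.55 and 7.34 in Siro.F, a difference of 2.24 ± 0.72 (adjusted p = 0.22). CCDC88A, CDC14A, SIK1, METTL14 and DOCK5 had differences from 1.86 to 2.22, and CLEC12A and THBS1 had 95% intervals that included 0. Among the lower genes PTPN13, a tyrosine phosphatase, read 4.75, 6.20 and 6.95 against 7.50, 7.59, 8.00 and 8.07, a difference of -1.74 ± 0.51 (adjusted p = 0.201), and fell by 1.73 ± 0.39 against healthy animals in KY1005.F (adjusted p = 0.00707). SLC39A8, a zinc and manganese transporter, read 7.55, 6.95 and 7.71 against 9.60, 9.29, 9.65 and 7.88, a difference of -1.58 ± 0.64 (adjusted p = 0.286). CLSPN, which acts in the checkpoint of DNA replication, read 7.77, 5.39 and 3.96 against 6.30, 9.60, 5.97 and 8.32, a difference of -2.21 ± 0.78 (adjusted p = 0.235). TMEM155, TMEM273 and FCRL3 had differences from -1.74 to -1.55, and H2AC25, PF4, PPBP and KLRC1 had intervals that included 0.

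**Figure D4:**
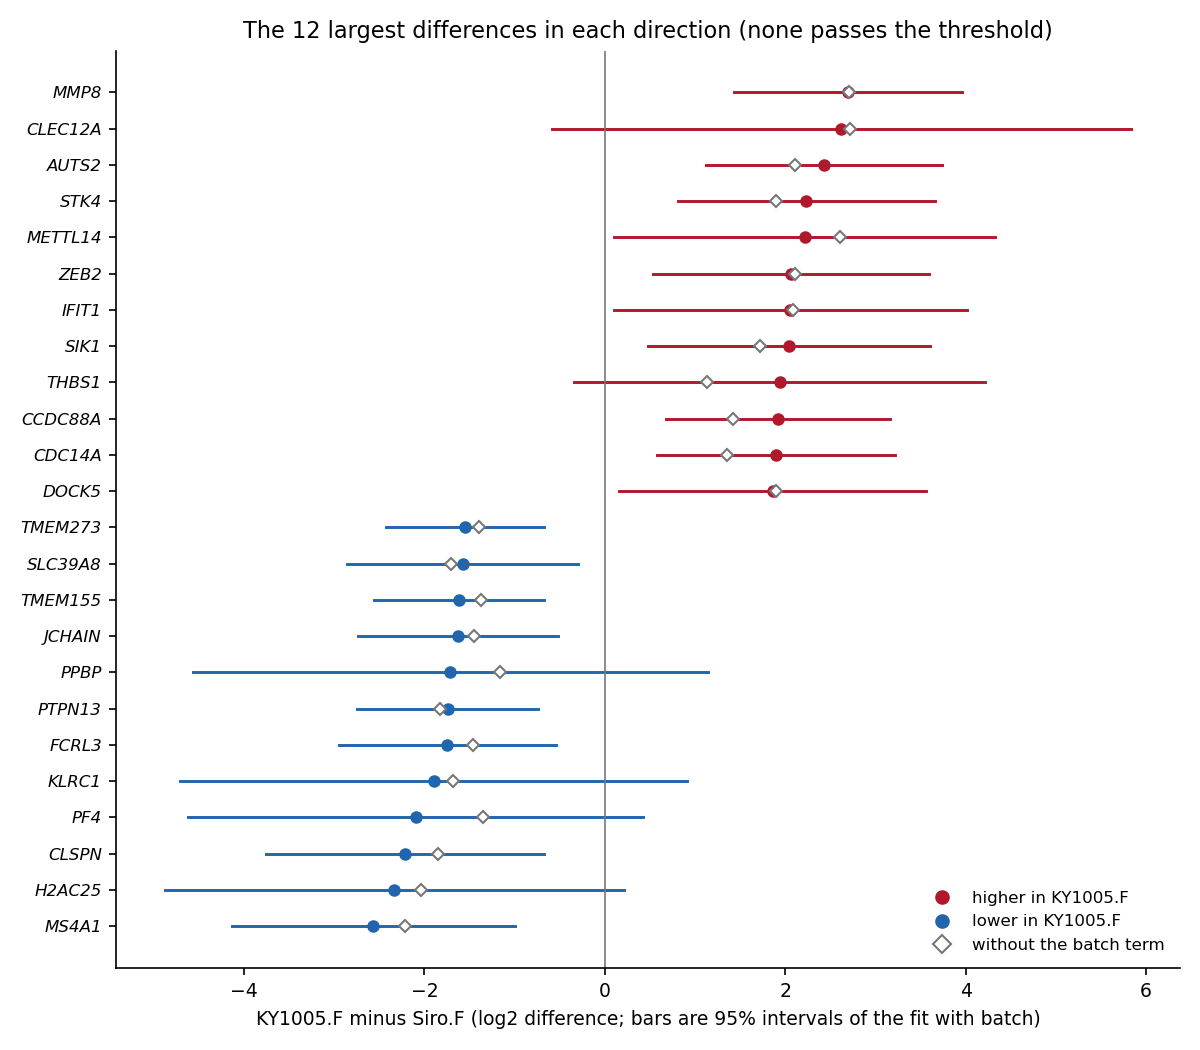
Log2 difference between KY1005.F and Siro.F with its 95% interval for the 12 largest differences in each direction, and open diamonds for the value without the batch term. MMP8 has the largest positive value (2.70) and MS4A1 the largest negative one (-2.57), and 6 of the 24 intervals include 0.

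Neutrophil and monocyte transcripts included the largest positive difference, and R.211 in KY1005.F and R.13 in Siro.F had the highest values of MMP8 and S100A8 in their groups. MMP8, a neutrophil collagenase, read 7.55, 5.34 and 6.93 in KY1005.F and 5.07, 3.64, 3.48 and 3.41 in Siro.F, above the healthy maximum of 4.15 in all KY1005.F arrays and in R.13. The difference was 2.70 ± 0.63 (6.49-fold, adjusted p = 0.153), with a Siro.F mean under 5.21, and MMP8 rose against healthy animals in KY1005.F by 3.17 ± 0.49 (adjusted p = 5.21e-05). In KY1005.D14 MMP8 read 3.64 in R.210 and 4.22 in R.212 on day 16, while the arrays of both agents read 3.30 to 4.06. Of these arrays only that of R.212 lay above the healthy maximum. CAMP, an antimicrobial peptide gene of neutrophils, read 10.62, 6.80 and 8.10 against 8.04, 6.61, 6.31 and 6.42, with a difference of 1.41 ± 0.99. S100A8, a calprotectin subunit of monocytes and neutrophils, read 12.55, 10.60 and 11.67 against 11.91, 9.02, 8.56 and 8.80, with a difference of 1.85 ± 1.47. R.210 read 8.28 and R.212 on day 16 read 7.61 for S100A8, both within the healthy range, which reached 9.02. The arrays of both agents read 10.28 to 11.45 for it. S100A9 and FCN1 had differences of 1.78 ± 1.51 and 1.86 ± 1.20. The mean of 7 measured neutrophil and granulocyte genes over healthy was 2.06, 0.35 and 0.83 in KY1005.F and 0.77, 0.06, 0.05 and 0.03 in Siro.F, where the healthy range was -0.38 to 0.64. That of 11 monocyte and myeloid genes was 2.57, 0.12 and 0.85 against 1.03, 0.95, 0.88 and -0.03, with a healthy range of -1.17 to 1.45. The monocyte genes CD14 and LYZ differed by -0.15 ± 0.66 and 0.39 ± 1.48. R.211 was highest for both lists and also for the mitosis list (2.76), the heat shock list (1.21, healthy maximum 0.51) and the immediate early list (1.76). With the myeloid score as a covariate 3 probe sets passed, as without it, and the part of other cells in single differences was not tested.

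B cell and plasma cell transcripts had lower values in KY1005.F, and none passed. MS4A1, which encodes CD20, read 3.80, 3.44 and 3.72 in KY1005.F and 6.24, 6.67, 4.48 and 6.11 in Siro.F, with a healthy median of 5.31. The groups did not overlap, and the difference was -2.57 ± 0.79 (adjusted p = 0.214), with KY1005.F values under 5.21. MS4A1 fell against healthy animals in KY1005.F by 2.12 ± 0.61 (adjusted p = 0.0371) and differed by 0.45 ± 0.50 in Siro.F. R.210 read 3.41 and the arrays of both agents 3.37 to 5.28. JCHAIN, the joining chain of secreted antibodies, read 3.65, 4.20 and 3.74 against 4.44, 7.31, 4.66 and 4.82, a difference of -1.63 ± 0.56 (adjusted p = 0.23). All these JCHAIN values but the 7.31 of R.18 lay under 5.21, where fold sizes are less reliable. The value of R.18 lay far from those of the other Siro.F arrays. MZB1, a chaperone of plasma cells, read 5.60, 6.10 and 5.50 against 6.58, 7.29, 5.61 and 6.19, a difference of -0.76 ± 0.26 (adjusted p = 0.232), and rose against healthy animals in Siro.F by 1.05 ± 0.17 (adjusted p = 4.9e-06). Of 8 measured B cell genes 3 were lower at an unadjusted p under 0.05 and the median was -0.41. The list mean was -0.38, -0.27 and -0.27 in KY1005.F and 0.38, 0.24, -0.02 and 0.21 in Siro.F, all within the healthy range of -0.60 to 0.59. The plasma cell list had 2 lower genes of 7 and a median of -0.24.

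Several NK cell and platelet genes ranged widely within a group, and none passed between the regimens. KLRF1, an NK cell receptor, read 9.21, 9.66 and 9.16 in KY1005.F and 7.08, 6.99, 6.76 and 9.97 in Siro.F, with a difference of 1.52 ± 0.96 (adjusted p = 0.459). KLRC1, which encodes NKG2A, read 5.63, 9.69 and 9.58 against 8.03, 10.79, 9.82 and 11.29, with a difference of -1.90 ± 1.41. PF4, a platelet chemokine, read 11.57, 6.56 and 5.18 against 10.26, 9.29, 8.75 and 8.17, with a difference of -2.10 ± 1.27, and it fell against healthy animals in KY1005.F by 3.35 ± 0.98 (adjusted p = 0.0408). PPBP followed the same order of animals in KY1005.F, with 11.34, 6.48 and 4.54. R.211 was thus the high array for platelet genes, and R.206 and R.212 read under the healthy minimum of 7.33 for PF4. None of the 9 measured NK cell genes, and of the platelet genes only ITGA2B (-0.32 ± 0.15), had an unadjusted p under 0.05.

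**Figure D5:**
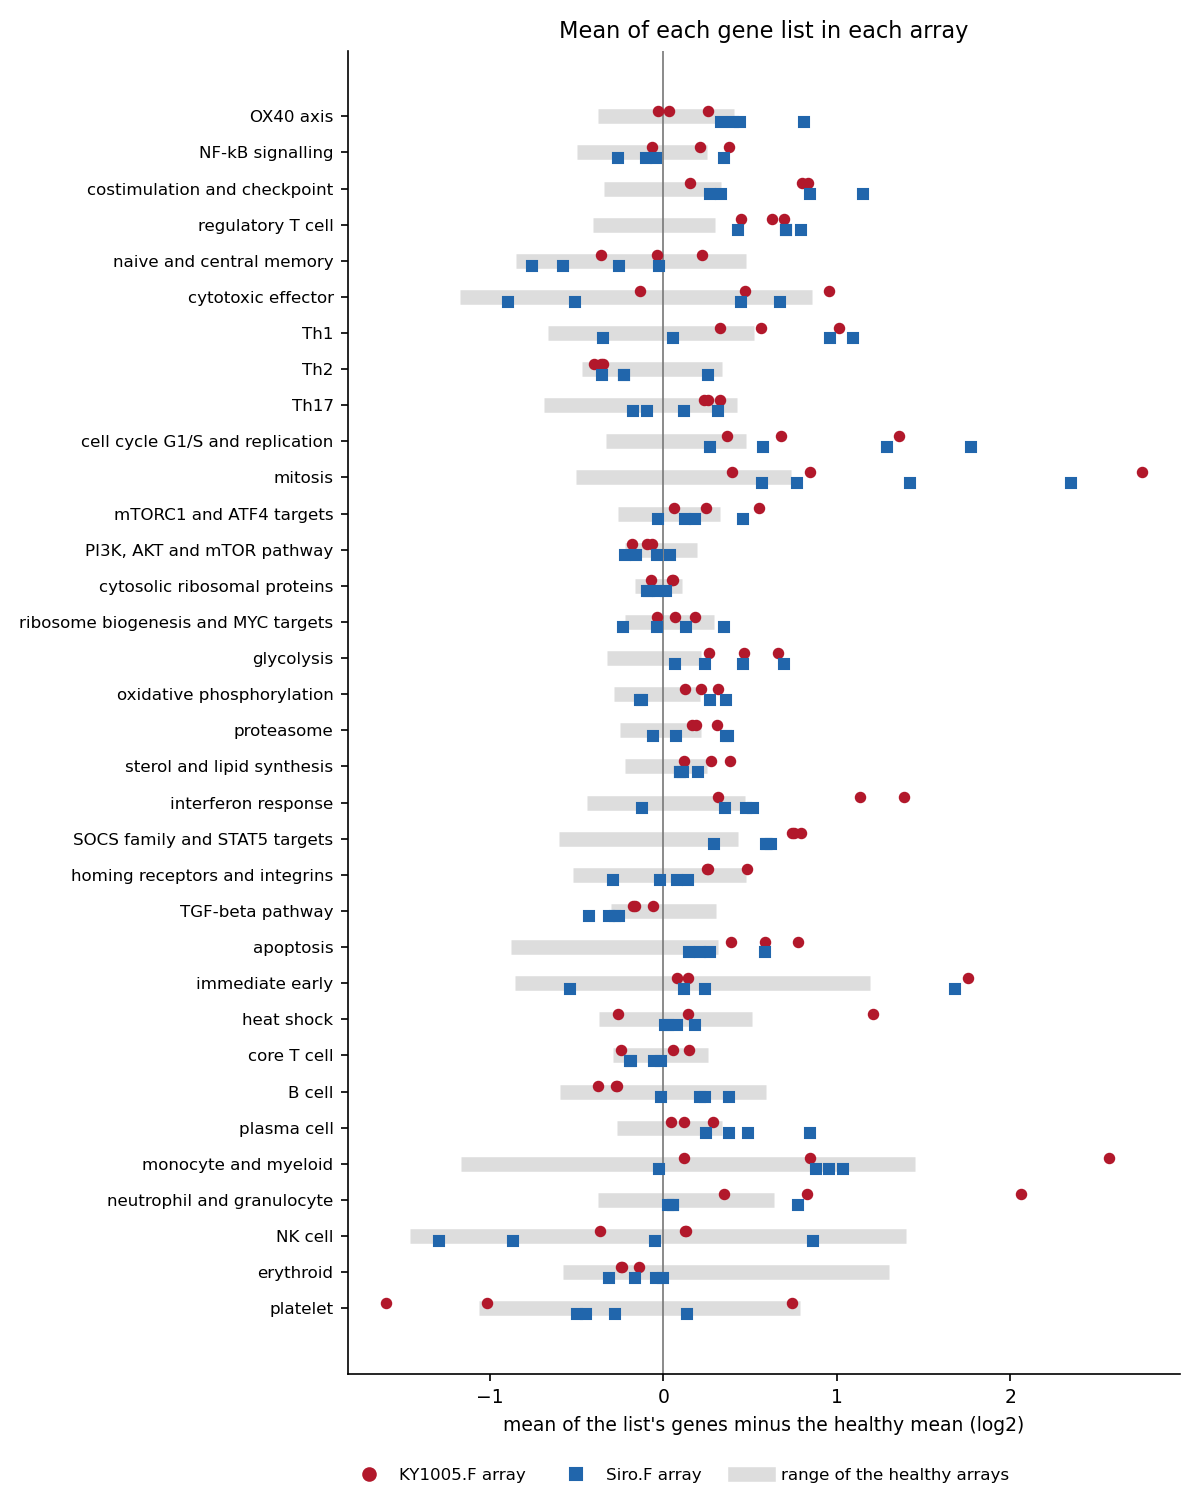
Mean of the measured genes of each of 34 lists in each KY1005.F array (red circles) and Siro.F array (blue squares), as log2 minus the mean of the healthy arrays, with the healthy range as grey bars. The groups do not overlap for the OX40 axis, B cell and SOCS and STAT5 lists, among others, and overlap widely for mitosis, where single arrays reach 2.76 and 2.35.

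SERPINE2, PGAP1 and SERPINB2 were looked at whatever they showed. SERPINE2, an inhibitor of serine proteases, read 9.36, 7.95 and 7.24 in KY1005.F and 10.64, 10.64, 8.16 and 7.99 in Siro.F, with a difference of -1.38 ± 0.76 (95% interval -2.90 to 0.14). It rose against healthy animals by 3.27 ± 0.48 in Siro.F (adjusted p = 1.16e-06) and differed by 1.89 ± 0.59 in KY1005.F (adjusted p = 0.0532). PGAP1, an enzyme that remodels GPI anchors, read 8.92, 9.43 and 9.87 against 9.59, 7.85, 9.41 and 7.40, a difference of 1.50 ± 0.55 (adjusted p = 0.248), or 0.84 without the batch term. It rose against healthy animals in KY1005.F by 2.48 ± 0.43 (adjusted p = 0.000292) and differed by 0.97 ± 0.35 in Siro.F (adjusted p = 0.0656). SERPINB2, an inhibitor of plasminogen activators, read 5.41, 2.26 and 1.73 against 2.79, 3.10, 3.47 and 3.16, low in all arrays but R.211, with a difference of 0.68 ± 0.83.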

How the data were processed

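The deposited table holds log2 RMA signal intensities of 52865 probe sets in 102 arrays, made by the authors with RMA and the affy package, per the submitters' processing notes. Versions and a genome build are not given in the sources used here. An F test for batch among healthy arrays gave p under 0.05 for 0.274% of probe sets and p above 0.95 for 24.9%. Gene names come from the platform annotation (24969 probe sets with 1 gene, 361 with several, 27535 with none). The RefSeq gene list of the organism held 24629 of the single-gene IDs. After 99 control probe sets were left out, 31710 were tested, namely those that reached 5.21 (the median signal of the table) in 3 or more arrays. A gene is its brightest single-gene probe set.

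Both arrays of healthy animal R.201 were averaged, which left 101 arrays. Differences come from limma 3.58.1 in R 4.3.3 (with data.table, version 1.17.8), with 16 groups and 6 batches in 1 fit, and p values were adjusted by Benjamini-Hochberg at 0.05. Intervals are 95% intervals of the moderated fit, which was tested on simulated data. The number of arrays limits the precision. An exact permutation test of 3 against 4 arrays has 35 splits and cannot go below p = 0.0571, so none is given. Replicate numbers do not pair animals between the groups.

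Members and lists were chosen with earlier results of these data known. The naming rule took the 12 largest differences in each direction, leaving out placeholder symbols and the genes of immunoglobulins, T cell receptors, KIR and MHC, up to 4 members of a list past the threshold, and a fixed set of 36 genes, of which 2 had no usable probe set. Genes outside it were added after their values were seen, 36 of them among the 92 named genes followed through the alternatives. Further genes, such as CD6, TRAT1, FAM241A and EPHX1, are given in the text without being among the 92, also after their values were seen. There are 34 gene lists, 24 for programmes, 8 for cell types and 2 for handling. Alternatives were the batch term, the arrays fitted, the filter, the prior, array weights, normalization, a 2-fold minimum, the animal as a block, arrays left out, covariates for the actin ratio and a myeloid score, and averaging each gene's probe sets.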

Additional observations from a re-analysis of the deposited data

Results flagged for a closer look

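The 3 probe sets that passed between the regimens, MmuSTS.4506.1.S1_at at -1.17, MmugDNA.19359.1.S1_at at -1.21 and MmugDNA.25266.1.S1_at at -0.80, differ by the fitted contrast itself, and the platform annotation gives no single gene for them.

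Of 129 genes and list means checked in Siro.F, 11 (8.53%) had 1 array far from the other three by Dixon's test, where chance gives about 1 in 20. R.13 was high for MMP8 (5.07, the others 3.41 to 3.64), S100A8 (11.9, the others 8.56 to 9.02), S100A9 (11.3, the others 8.05 to 8.49) and the mean of the granulocyte list (0.774, the others 0.0255 to 0.0575). R.18 was high for JCHAIN (7.31, the others 4.44 to 4.82) and for the mean of the sterol list (0.198, the others 0.0978 to 0.112). R.16 was high for KLRF1 (9.97, the others 6.76 to 7.08) and low for ALCAM (9.36, the others 10.4 to 10.5), for the mean of the SOCS and STAT5 list (0.289, the others 0.593 to 0.621) and for that of the monocyte and myeloid list (-0.0270, the others 0.883 to 1.03). R.17 was low for CD8A (11.6, the others 12.8 to 13.0). The 3 arrays of KY1005.F are too few for this test.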

How the results depend on the processing

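The count of 3 probe sets between the regimens was 55 without the batch term, 9 with only both groups and healthy controls, 191 with array weights, 18 with only the Siro.F arrays of days 22 and 24, and 1 with a filter at 7. It was 0 with only the 7 arrays, with only the batches that hold the groups, when arrays of high actin ratio were dropped and when that ratio was a covariate (limma; 4862, 3559, 1624 and 2714 at an unadjusted p under 0.05). With array weights R.206 had a weight of 14.5 and the other 6 arrays weights of 0.530 to 1.49. Leaving out 1 array at a time gave 0 to 13, with 0 for each KY1005.F array and 13 without R.13. In fits chosen after seeing the data, without the batch term, it was 5, 8 and 30 without R.211, R.206 and R.212, 64, 112, 25 and 66 without R.13, R.18, R.17 and R.16, and 318 after dropping those of high actin ratio. With the animal as a random block (correlation 0.107) it was 4. Averaging each gene's probe sets gave 0 of 10718 genes.

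Against healthy controls the 1040 probe sets of KY1005.F were 2367 without the batch term, 180 within its own batch, 332 within the batches of both groups and 41 to 1008 with 1 array left out. The 2824 of Siro.F were 1488 within its own batches and 1016 to 2647 with 1 array left out. Of 92 named genes 79 kept the sign of their difference in all settings run for them, and 15 passed in at least 1, TNFRSF4 in 2 of 24 (adjusted p 0.019 to 0.772). The cause of these shifts was not tested. With 3 and 4 animals in separate batches, a missing call does not show equal levels.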

Other observations

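Further genes did not pass in the fit of all groups with batch and passed without the batch term. FAM241A had a difference of 1.66 ± 0.42 with the batch term (adjusted p = 0.155) and 1.53 without it (adjusted p = 0.0444). STYK1, a pseudokinase gene, read 4.70, 4.60 and 4.57 in KY1005.F and 5.01, 6.36, 5.52 and 5.63 in Siro.F, a difference of -1.01 ± 0.25, and it also passed with array weights, without R.13 and with only the Siro.F arrays of days 22 and 24. Its KY1005.F values and that of R.13 lay under 5.21. EPHX1, an epoxide hydrolase, had a difference of -0.67 ± 0.17 and fell in KY1005.F against healthy animals by 0.54 (adjusted p = 0.0124), while C6H16orf92 read 6.83, 6.79 and 7.05 against 7.34, 7.39, 7.78 and 7.60 and also passed with array weights and without R.13. The median difference was 0.07 for oxidative phosphorylation, -0.07 for the proteasome, 0.05 for sterol and lipid synthesis and 0.01 for ribosome biogenesis, beside -0.07 over all genes. The medians were 0.25 for 13 apoptosis genes, 0.32 for 17 homing receptors, 0.08 for TGF-beta, 0.16 for Th17, 0.08 for Th1 and -0.27 for Th2 genes, -0.43 for 6 erythroid genes, 0.13 for immediate early and 0.34 for heat shock genes, 0.46 for granulocyte, 0.39 for myeloid and 0.08 for NK cell genes, -0.16 for platelet genes and -0.09 for core T cell genes.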
